A study of Mus musculus with 4 samples.

Results

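Proliferating T cells of small-intestinal crypts are described here: 264 cell barcodes among 57174 T cell barcodes, out of 68260 deposited barcodes, of which 68087 had at least 300 detected genes and at most 10% mitochondrial transcripts. A barcode was taken as a T cell when it held at least 1 unique molecular identifier (UMI, a tag that counts each captured transcript once) of the CD3 genes Cd3e, Cd3d or Cd3g and none of Cd79a, a B cell receptor subunit, or Siglech, a plasmacytoid dendritic cell lectin. It was taken as proliferating when it also held at least 1 UMI of Mki67 and at least 1 UMI of Top2a or Birc5. The libraries are 5′ single-cell RNA libraries of sorted CD45+ cells, the blood-derived immune cells, taken from crypts in the small intestine of mice. The groups are 2 samples of animals fed a high-cysteine diet, called cystine in the sample titles, and 2 of animals fed a control diet, with 18000 cells loaded per sample. The labels put "Male" in the genotype field of all 4 samples and give no strain, genotype or age. Their treatment field reads "Control" throughout, so the diets were taken from the titles. The labels do not say whether a sample is 1 mouse or a pool, nor that the samples come from separate animals. P-values therefore measure only the spread between these 4 samples, which may be technical.

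The crypt epithelium holds many resident T cells, the intraepithelial lymphocytes. Most carry the CD8αα homodimer (Cd8a without Cd8b1) and either a γδ receptor (Trdc, Tcrg genes) or an αβ receptor (Trac, Trbc genes), while conventional cytotoxic T cells carry CD8αβ (Cd8a with Cd8b1) and helper cells carry CD4. Such resident cells renew slowly by division in place. A dividing cell copies its DNA in S phase, with a burst of histone and nucleotide enzymes, then builds the spindle and separates the chromosomes in mitosis, when Mki67, Top2a and Birc5 are abundant. Many genes of the late phases are controlled through a short promoter element, the cell cycle genes homology region (CHR), next to CCAAT boxes, whereas many S phase genes carry E2F sites.

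The promoters of genes that mark these cells are shown because the genes move together and the elements are short enough to read. The sequences are from RefSeq (GRCm38.p6), each 250 bases before to 50 after the annotated start, 5′ to 3′ on the gene's strand. Capitals mark 4 motifs, searched on both strands. The CHR element was searched as TTTGAA. The box that the factor NF-Y binds was searched as CCAAT. An E2F-type site was searched as TTTNNCGC. The TATA box was searched as TATAAA. Mki67, a chromosome surface protein of cycling cells and a gene of the selection, is on chromosome 7 (chr7:135716330-135716629, minus strand). Ccnb2, a mitotic cyclin, is on chromosome 9 (chr9:70421505-70421804, minus strand). Pclaf, a partner of the replication clamp PCNA, is on chromosome 9 (chr9:65890073-65890372, plus strand). H1f5, which the deposited gene table lists as Hist1h1b, a linker histone made in S phase, is on chromosome 13 (chr13:21780576-21780875, minus strand).
Mki67: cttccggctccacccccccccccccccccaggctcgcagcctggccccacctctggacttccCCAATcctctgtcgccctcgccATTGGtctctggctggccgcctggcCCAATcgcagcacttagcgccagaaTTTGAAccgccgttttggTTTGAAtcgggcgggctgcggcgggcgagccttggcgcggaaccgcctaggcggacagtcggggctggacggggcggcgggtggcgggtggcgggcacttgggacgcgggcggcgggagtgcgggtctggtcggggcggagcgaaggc
Ccnb2: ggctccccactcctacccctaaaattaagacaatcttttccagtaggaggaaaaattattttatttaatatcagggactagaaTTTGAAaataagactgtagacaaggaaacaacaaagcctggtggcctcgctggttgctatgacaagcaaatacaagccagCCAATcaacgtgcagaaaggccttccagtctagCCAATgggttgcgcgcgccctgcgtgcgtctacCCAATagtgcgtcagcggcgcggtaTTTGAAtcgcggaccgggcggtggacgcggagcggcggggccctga
Pclaf: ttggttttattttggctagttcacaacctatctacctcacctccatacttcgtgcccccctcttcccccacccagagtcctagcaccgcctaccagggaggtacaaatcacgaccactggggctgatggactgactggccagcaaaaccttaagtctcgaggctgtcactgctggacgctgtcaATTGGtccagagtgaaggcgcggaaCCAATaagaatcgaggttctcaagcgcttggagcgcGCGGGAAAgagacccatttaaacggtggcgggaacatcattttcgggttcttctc
H1f5: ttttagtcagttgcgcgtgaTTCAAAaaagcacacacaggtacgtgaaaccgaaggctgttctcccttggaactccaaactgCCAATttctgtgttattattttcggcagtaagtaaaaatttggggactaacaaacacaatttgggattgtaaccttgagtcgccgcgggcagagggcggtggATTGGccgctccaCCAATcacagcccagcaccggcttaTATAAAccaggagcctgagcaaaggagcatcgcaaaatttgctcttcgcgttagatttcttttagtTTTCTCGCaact
The windows of Mki67 and Ccnb2 held 2 CHR matches and 3 CCAAT matches each, that of Pclaf 2 CCAAT matches and 1 E2F-type match, and that of H1f5 1 CHR, 3 CCAAT, 1 E2F-type and 1 TATA match. Over the genes of a mitosis list that had a window, 40 of 65 promoters held TTTGAA, which is 61.5%, against 18.1% of 27025 promoters in all. For these shares 1 window was taken per gene, the first by position, and 1 chromosome was left out. CCAAT stood in 75.4% of the mitosis promoters and 37.8% of all. TTTNNCGC stood in 48.6% of 37 promoters of a replication and S phase list, against 5.26% of all. TTTGAA stood in 8.11% of these 37 and CCAAT in 64.9%. Of 52 replication histone promoters, 82.7% held CCAAT, 44.2% held TTTGAA and 59.6% held TATAAA, against 14.1% of all promoters with TATAAA. A match is a description of the letters in the window and does not show that a factor binds there.

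Stmn1, a microtubule destabiliser, and Pclaf were not used to choose the cells and checked the label. Stmn1 was detected in 76.1% of the 264 barcodes (95% exact Clopper-Pearson interval 70.5 to 81.1) and Pclaf in 58.3% (52.1 to 64.3). In the 54877 other T cells, which had no UMI of Mki67, Top2a or Birc5, the shares were 1.09% and 0.226%. Weighted to the same UMI counts per cell as the proliferating cells, the other T cells had shares of 5.67% and 1.59%. Intervals and limits here cover counting error only. The proliferating barcodes were deeper, with median UMI counts of 3206 and 4327.5 in cystine samples 1 and 2 and 2963 and 3766 in control samples 1 and 2, against 1332, 1514, 1368 and 1732 in other T cells of the same samples. The share of cells that meets the gate can depend on depth, and results are given at matched depth too.

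The gate was not sharp at its lower edge. Just inside, 50 barcodes held exactly 1 UMI of Mki67 and 1 of Top2a or Birc5. Of these, 36% had Stmn1 and 22% had Pclaf. Just outside, 706 T cells had Mki67 without Top2a or Birc5, with Stmn1 in 6.09% and Pclaf in 1.84%. The 1327 T cells with Top2a or Birc5 and no Mki67 had Stmn1 in 13.2% and Pclaf in 6.93%. A total of 121 barcodes had at least 2 UMIs on each side of the gate, and 92.6% of these had Stmn1.

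Some barcodes carried transcripts of other cell types, and this touches several values below. Of the 264 barcodes, 11 held at least 3 of 15 crypt epithelial genes (Epcam was left out of the count), with 1 and 5 in cystine samples 1 and 2 and 2 and 3 in control samples 1 and 2. They held 1.68% and 39.7% of the proliferating cells' UMIs in the cystine samples and 3.52% and 18.05% in the control samples. Of 15 barcodes above 10000 UMIs, 9 were among them. The deepest, in cystine sample 2, had 48000 UMIs, 12 of the 15 epithelial genes and 1 CD3 UMI, and held 15.6% of that sample's UMIs in this set. The summed level of the epithelial list was 109 and 4010 CPM (UMI counts scaled to the same total in each sum) in proliferating cells of the cystine samples and 390 and 1614 CPM in those of the control samples, against 213 to 285 CPM in other T cells. Without the 11 barcodes it was 94.8 and 86.1 CPM in the cystine samples and 107 and 95.4 CPM in the control samples, with 5 or 6 of the list's 16 genes detected and Lgr5, the stem cell marker, at 0 in all 4. The 11 were chosen by genes of this list, so lower values without them follow from the choice. Another barcode of cystine sample 2 held 621 UMIs of Mcpt1 and 363 of Mcpt2, mucosal mast cell proteases. Scrublet, which scores barcodes as possible doublets, placed 7 proliferating barcodes in its highest set, and none of the 11 was among them. In cystine samples 1 and 2 the set held 1 of 56 and 1 of 48 proliferating barcodes. In control samples 1 and 2 it held 4 of 99 and 1 of 61. Of other T cells it held a larger share in each sample. This was 13.07% and 12.39% in the cystine samples and 13.2% and 11.97% in the control samples. Results are given with and without the 11 where they change. No barcode was shared between libraries within the set, whereas 334 to 451 barcodes (2.17% to 2.68% of the smaller library) were shared between pairs of whole libraries. Neutrophil markers were at 0 UMIs in the set in all 4 samples, but other immune lists were not. The B cell list summed to 117 to 492 CPM in proliferating cells of the 4 samples, against 279 to 536 CPM in other T cells. The plasmacytoid dendritic cell list summed to 212 to 353 CPM, against 374 to 437 CPM. The myeloid and dendritic cell list summed to 268 to 545 CPM, against 426 to 607 CPM. Where these transcripts came from was not tested.

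**Figure D1:**
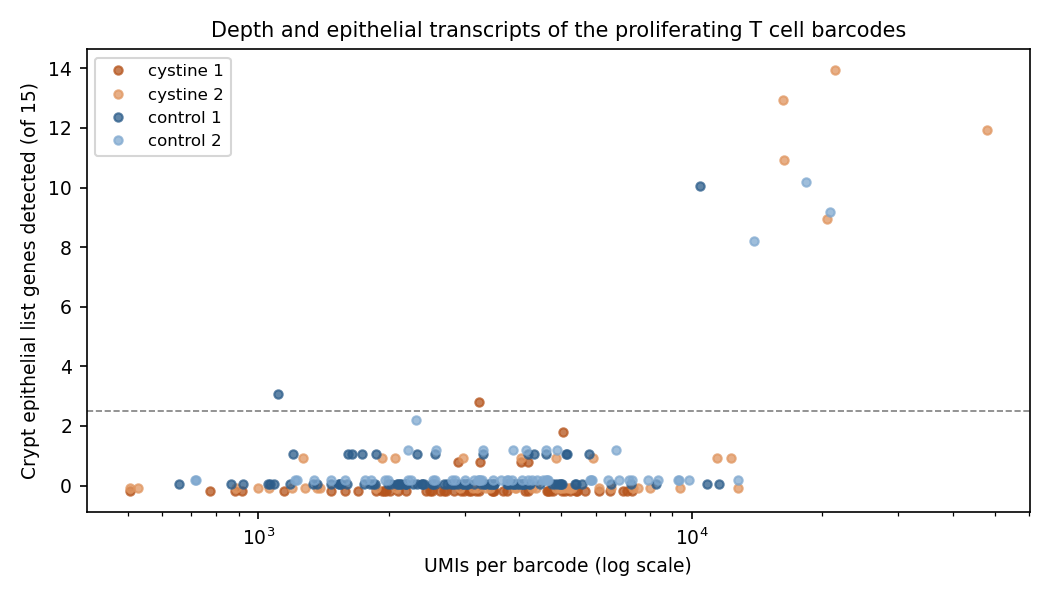
Each point is 1 proliferating T cell barcode, with its UMIs (log scale) on the horizontal axis and the number of crypt epithelial genes detected, of 15, on the vertical axis, shifted slightly by sample. The 11 points above the dashed line are the epithelial barcodes, 9 of which lie above 10000 UMIs.

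Fewer than 1 in 100 T cells met the proliferation gate on either diet. The gate needs detected UMIs of 2 kinds, so cells that divide can be missed and the shares are not the full dividing fraction. The share was 0.413% and 0.347% in cystine samples 1 and 2, and 0.642% and 0.425% in control samples 1 and 2. These are 56 and 48 proliferating cells of 13561 and 13847 T cells in the cystine samples, and 99 and 61 of 15412 and 14354 in the control samples. The groups did not overlap, but cystine sample 1 and control sample 2 differed by less than their counting intervals (0.312 to 0.536 and 0.325 to 0.546). The mean share was 0.380% ± 0.0469 on the cystine diet and 0.534% ± 0.154 on the control diet (SD, n = 2 each; two-sided exact permutation p = 0.333, the smallest that 2 samples against 2 can give). Without control sample 1 the difference was -0.0452 percentage points, against -0.154 with it.

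Depth did not turn this order round. With every cell thinned to 1000 UMIs, and shallower cells left out, the shares were 0.172% and 0.104% in the cystine samples and 0.355% and 0.189% in the control samples. Thinning left out 4 and 4 proliferating cells in the cystine samples and 3 and 2 in the control samples. As shares of all kept barcodes the values were 0.290% and 0.290% in the cystine samples and 0.588% and 0.397% in the control samples. Without the epithelial barcodes the groups overlapped, with 0.406% and 0.311% in the cystine samples and 0.630% and 0.404% in the control samples (exact permutation p = 0.667).

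**Figure D2:**
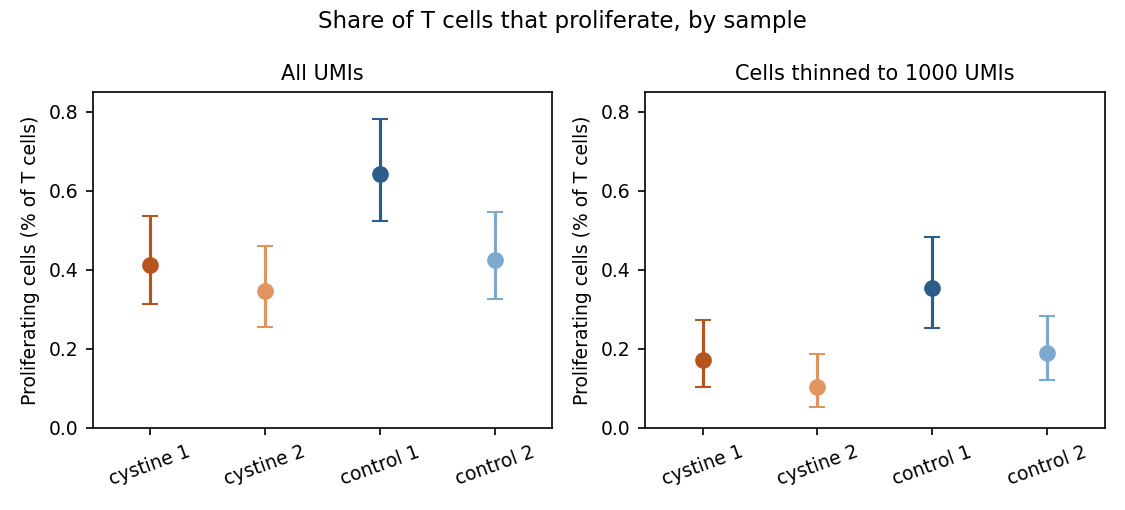
The share of T cells that met the proliferation gate is plotted for each sample, from all UMIs on the left and after thinning each cell to 1000 UMIs on the right, with 95% exact binomial intervals. Both control samples lie above both cystine samples in each panel, and control sample 1 is highest, at 0.642% and 0.355%.

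Dividing cells were found in classes with Trdc and with Trac alike. Of the 264, 45 (17.0%) had Trdc and no Trac, 72 (27.3%) had Trac and no Trdc, 104 (39.4%) had both and 43 (16.3%) had neither. Trdc and Trac are the constant genes of the δ and α chains, and the same region of the genome holds both. Why 104 cells had UMIs of both was not tested, and they were not put in a lineage by these genes. The other classes do not separate the lineages either. Of the Trac-only cells, 69.4% had a γ V gene and 73.6% a Tcrg constant gene. Of the Trdc-only cells, 53.3% had Trbc1 or Trbc2 and 28.9% a Trav gene. By V gene names, 221 cells had a γ or δ V gene, 153 an α or β V gene and 129 both kinds. Every Trav gene was counted as an α V gene. These include genes named for the δ chain too, such as Trav15-2-dv6-2 (16 cells) and Trav13-4-dv7 (15 cells). The part of such genes in the 129 cells and in the 28.9% was not tested. Trgv2 was found in 168 cells, Tcrg-V7 in 118 and Tcrg-V1 in 85, and in 63.6%, 44.7% and 32.2% of proliferating cells against 59.6%, 37.4% and 27.2% of other T cells.

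Most dividing cells had UMIs of Cd8a and none of Cd8b1, the pattern of CD8αα cells, as had most T cells. An undetected Cd8b1 can be a missed transcript, so the pattern does not prove the type. Of all 57174 T cells, 42898 had Cd8a without Cd8b1 or Cd4. Cd8a without Cd8b1 or Cd4 was found in 193 cells (73.1%), Cd8a with Cd8b1 in 19 (7.20%), Cd4 alone in 6 (2.27%) and no coreceptor in 37 (14.02%), with 9 in other combinations. The most frequent combination was Trdc and Trac with Cd8a alone, in 90 cells. Trac with Cd8a alone followed with 46 cells and Trdc with Cd8a alone with 36. Cd8a with Cd8b1 and with Trac but no Trdc, the pattern of conventional cytotoxic T cells, was found in 10 cells. The 6 cells with Cd4 alone all had a β V gene, and none had Trdc. Transcripts of these genes also appeared in B cells: in cystine samples 1 and 2 Cd8a was in 8.63% and 8.05% of B cell barcodes, and in control samples 1 and 2 in 5.13% and 2.48%. For Trdc the B cell shares were 1.76% and 0.562% in the cystine samples and 2.56% and 0.495% in the control samples, and Cd4 was in at most 0.439%. For Cd8a the shares in proliferating cells lay far above these, at 78.6% and 83.3% (cystine) and 85.9% and 83.6% (control), while B cells had median UMI counts of 1188 to 1324.5. For Cd8b1 the gap was smaller: it was found in 5.36% and 16.7% of proliferating cells in the cystine samples and 5.05% and 6.56% in the control samples, against 0.878%, 1.12%, 2.05% and 0.495% of the shallower B cells in the same order. The part of background in the Cd8a with Cd8b1 class was not tested.

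No receptor class differed between dividing and other T cells of the same depth past an adjusted p of 0.05, which 4 samples cannot reach. The class with both Trdc and Trac averaged 38.3% of proliferating cells over the 4 samples, against 17.7% of all other T cells. Weighting the other T cells to the proliferating cells' UMI counts brought them to 34.5%, and the remaining difference of 3.84 ± 3.60 percentage points (SD over 4 samples; higher in 3 of 4) had an exact sign-flip permutation p of 0.25 (adjusted over 9 classes 0.45). Trdc without Trac averaged 17.5% of proliferating and 15.5% of weighted other T cells, and Trac without Trdc 28.0% and 26.1%. The class with neither gene averaged 16.1% and 23.9%, and was lower in proliferating cells in 4 of 4 samples (p = 0.125 by the exact permutation test, the smallest that 4 samples can give; adjusted 0.281). After thinning to 1000 UMIs it averaged 55.3% and 49.7%, the other way round.

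Cd8a alone was found in 71.4% and 60.4% of proliferating cells in the cystine samples and 78.8% and 75.4% in the control samples, against 75.5%, 70.2%, 79.7% and 80.7% of weighted other T cells in the same order. It was lower in proliferating cells in 4 of 4 samples, by 5.03 ± 3.64 percentage points (exact sign-flip permutation p = 0.125, adjusted 0.281). Without the epithelial barcodes it was higher in 1 of 4 samples, with a mean difference of -7.21 percentage points. Cd8a with Cd8b1 averaged 8.16% of proliferating and 9.65% of weighted other T cells. Cd4 alone was found in 1, 1, 1 and 3 cells, and averaged 2.45% against 0.314% of weighted other T cells, higher in 4 of 4 samples (exact permutation p = 0.125, adjusted 0.281). None of the 93 proliferating cells that remained after thinning had Cd4 alone, which allows a share of up to 3.23% by 3 counts of the total, with an exact 95% interval that reaches 3.89%.

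**Figure D3:**
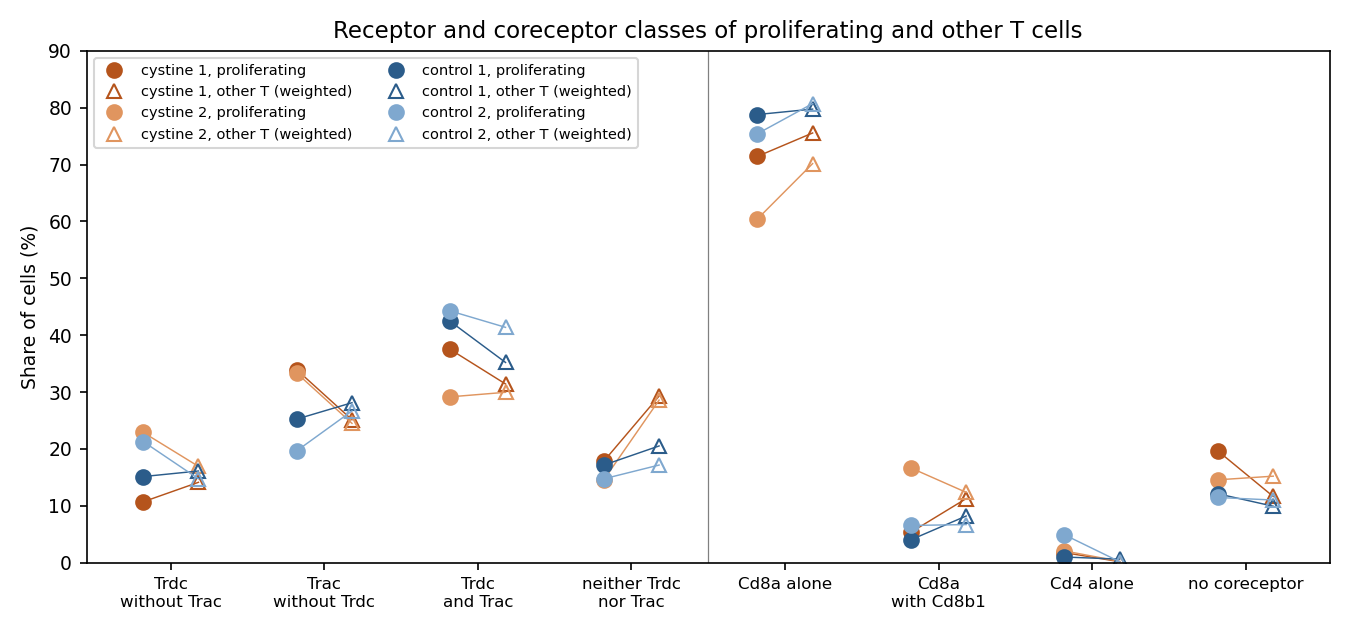
Filled circles give the share of proliferating T cells in each receptor class (left of the line) and coreceptor class (right), and open triangles the share of other T cells weighted to the same UMI counts, with a line joining the values of 1 sample. Cd8a alone is the largest coreceptor class in every sample, at 60.4% to 78.8% of proliferating cells, and 70.2% to 80.7% of weighted other T cells.

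Each receptor and coreceptor class held proliferating cells when all UMIs were used. The proliferating share was 0.406% of T cells with Trdc only (95% exact interval 0.296 to 0.542), 0.499% of those with Trac only (0.390 to 0.628), 0.998% of those with both (0.816 to 1.21) and 0.203% of those with neither (0.147 to 0.273). The classes also differed in depth, with median UMI counts of 1433, 1597, 1911 and 1261 in other T cells. Thinned to 1000 UMIs, they were 0.198% (0.113 to 0.321), 0.154% (0.0878 to 0.249), 0.355% (0.199 to 0.586) and 0.207% (0.152 to 0.276), and all of these intervals overlapped. For coreceptors the thinned shares were 0.183% for Cd8a alone, 0.104% for Cd8a with Cd8b1 and 0.353% for no coreceptor. Of 265 T cells with Cd4 alone, 2.26% (0.835 to 4.86) were proliferating before thinning, and 0 of 151 after it, which allows up to 1.99% by 3 counts of the total, with an exact interval that reaches 2.41%.

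**Figure D4:**
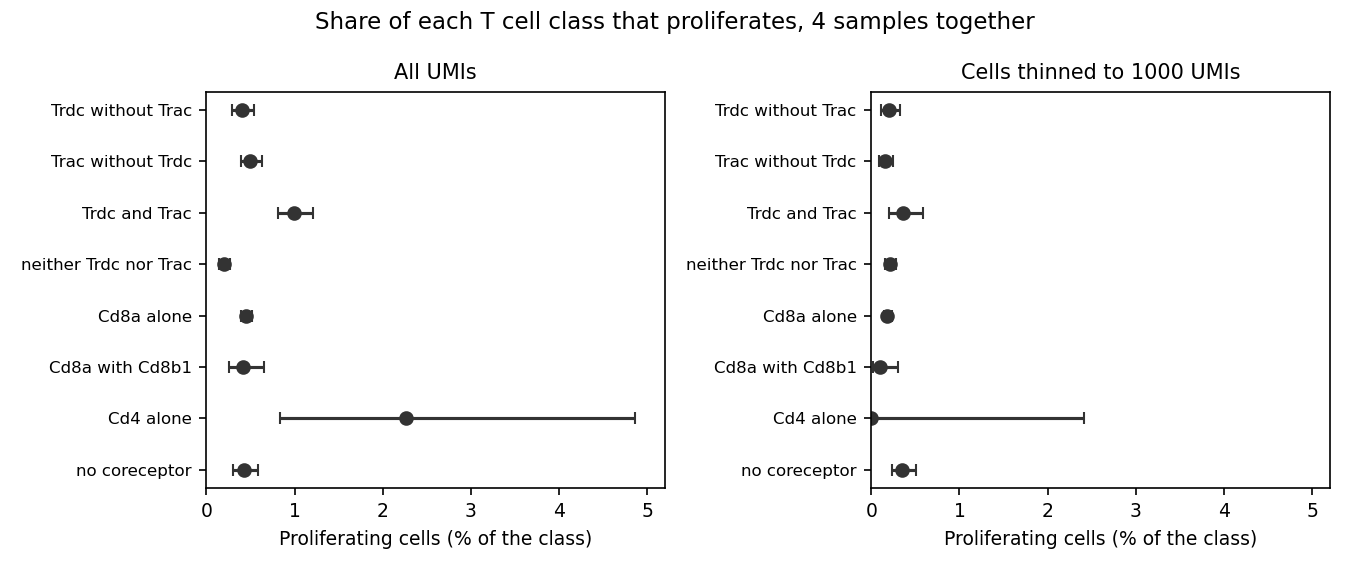
The horizontal axis gives the share of each T cell class that met the proliferation gate over the 4 samples together, with 95% exact binomial intervals, from all UMIs (left) and after thinning to 1000 UMIs (right). The class with both Trdc and Trac is at 0.998% on the left and 0.355% on the right, and the interval of Cd4 alone is wide in both panels.

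Between the diets, the receptor makeup of dividing cells differed in level, and no test of 2 samples against 2 can pass 0.05. Trac without Trdc made up 33.9% and 33.3% of proliferating cells in the cystine samples and 25.3% and 19.7% in the control samples. Trdc and Trac together made up 37.5% and 29.2% in the cystine samples and 42.4% and 44.3% in the control samples. Cd8a alone averaged 65.9% ± 7.79 on the cystine diet and 77.1% ± 2.39 on the control diet (SD, n = 2 each). None of these groups overlapped, and each had an exact permutation p of 0.333 (adjusted over 9 classes 0.75). The Trac difference, 11.2 percentage points here, was -9.58 after thinning. The Cd8a alone difference was not particular to dividing cells. In the weighted other T cells above, this class was also lower on the cystine diet, without overlap. Unweighted other T cells had Cd8b1 at 193 and 208 CPM in the cystine samples and 88.5 and 73.7 CPM in the control samples. That is a log2 change of 1.31 (edgeR adjusted p = 0.00728). For the Trac classes the diet contrast in other T cells is not given here. Within receptor classes, Trdc-only T cells were proliferating in 0.2497% and 0.409% in the cystine samples and 0.454% and 0.482% in the control samples (exact permutation p = 0.333, adjusted 0.75). Trac-only T cells were proliferating in 0.550% and 0.474% in the cystine samples and 0.696% and 0.299% in the control samples, and these groups overlapped.

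The barcodes spanned the cycle from S phase to mitosis. At least 3 UMIs of replication histones, whose messages are made while DNA is copied, were found in 57.6% of the 264, against 2.16% of other T cells. Ccnb1, Plk1 or Cdc20, a cyclin, a kinase and an activator of late division, were found in 37.9%, against 0.483%. Histone UMIs without the late genes were found in 82 cells, late genes without them in 30, both in 70 and neither in 82. The histone share was 64.3% and 54.2% in the cystine samples and 49.5% and 67.2% in the control samples, and the late gene share 32.1% and 41.7% in the cystine samples and 38.4% and 39.3% in the control samples, so the diets overlapped in both. At least 1 UMI of the replicative helicase genes Mcm2 to Mcm7 was found in 75.4% of the cells. Cells with late genes had a median of 4191.5 UMIs and cells with neither 2513.5.

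Rrm2, the small subunit of the enzyme that makes deoxynucleotides, had 356 and 320 CPM in proliferating cells of the cystine samples and 340 and 349 CPM in those of the control samples. Other T cells had 5.32, 3.43, 3.83 and 3.81 CPM in the same order of samples. CPM in this and the following paragraphs is scaled by trimmed mean of M values (TMM) and not by gene length, so it compares samples and not genes. Because the cells were chosen by their own cycle genes, all differences from other T cells are given as a description, without p-values for single genes. Over 11664 genes without those of the gate, 21.1% differed, 11.3% higher and 9.83% lower, past an adjusted p of 0.05 in edgeR's quasi-likelihood test with the sample as a block. The median log2 difference of all genes was -0.13. Stmn1 reached 1248 and 1068 CPM (cystine) and 1099 and 1034 CPM (control) in proliferating cells, against 8.39 to 9.04 CPM in other T cells.

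Genes that copy and divide the genome were higher as whole lists, which the choice of cells by cycle genes largely fixes in advance. The counts past the threshold describe the set and are no test of it. All 46 genes measured of the replication and S phase list were past the threshold, with a median log2 difference of 2.99. Of 76 measured mitosis genes, 74 were higher and 1 lower, with a median of 4.69. The largest differences in these lists were those of Ccna2, the S and G2 phase cyclin (8.64 on the log2 scale), Hmmr, a spindle protein (8.59), and Pclaf (8.52). Ccna2 had 178 and 170 CPM in proliferating cells of the cystine samples and 132 and 178 CPM in those of the control samples, against 0.205 to 0.616 CPM in other T cells. The exception was Pttg1, securin, at -0.81 on the log2 scale. Of 37 measured replication histones, 33 were higher: Hist1h1b had 936 and 467 CPM in proliferating cells of the cystine samples and 671 and 588 CPM in those of the control samples, against 13.5, 6.57, 5.15 and 1.76 CPM in other T cells.

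Further genes outside those lists followed the same pattern. Ska1, which ties chromosomes to the spindle, was higher by 8.87 on the log2 scale, Pbk, a mitotic kinase, by 8.81, Esco2, which acetylates cohesin, by 8.38, and Neil3, a DNA repair glycosylase, by 8.12. Cdca3 had 173 and 244 CPM in proliferating cells of the cystine samples and 170 and 214 CPM in those of the control samples, against 1.10 to 1.71 CPM in other T cells. Mxd3, a MAX partner, Aspm, Cep55 and Knl1, spindle and cytokinesis genes, Rad51ap1, a repair gene, Shcbp1 and Fbxo5, an inhibitor of the anaphase ubiquitin ligase, completed the 12 with the largest differences among genes of at least 50 CPM outside the lists, between 5.73 and 8.63. All were higher in 4 of 4 samples.

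Regulators of the cycle went both ways. Btg1, an antiproliferative factor, had 59.4 and 56.7 CPM in proliferating cells of the cystine samples and 52.8 and 110 CPM in those of the control samples, against 218, 235, 198 and 294 CPM in other T cells. Btg2, a related factor, Cdkn1b, the inhibitor p27, and Ccnd2, a G1 cyclin, were the other 3 of the cyclin and inhibitor list that were lower. Of the 34 measured, 19 were higher, the inhibitors Cdkn2a and Cdkn2c and the pocket protein gene Rbl1 as well as E2f7 and E2f8, which repress E2F targets, and the phosphatase gene Cdkn3 among them.

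Metabolic genes were higher in part. Of the nucleotide synthesis list 19 of 24 measured genes were higher and none lower, with a median of 1.12. Gapdh of glycolysis had 792 and 907 CPM in proliferating cells of the cystine samples and 841 and 944 CPM in those of the control samples, against 397 to 446 CPM in other T cells, and 7 of 16 glycolysis genes were higher. Of oxidative phosphorylation genes 20 of 26 were higher, by a median of 0.69. These lists were nearer to 0 without the epithelial barcodes and matched on UMIs: oxidative phosphorylation had 14 higher and 1 lower of 26 (median 0.33), glycolysis 5 higher of 10 (median 0.38, against 0.89) and nucleotide synthesis 9 higher of 15 (median 0.59). Phgdh and Psat1, which make serine, were higher by 1.46 and 1.77. Txn1, thioredoxin, had 228 and 897 CPM in proliferating cells of the cystine samples and 343 and 791 CPM in those of the control samples, against 139 to 185 CPM in other T cells. Without the epithelial barcodes, and against other T cells matched on UMIs, Txn1 was higher by 0.86 instead of 1.73. Of 28 ribosomal protein genes, 11 were higher and 2 lower in all barcodes, and 3 higher and 6 lower in that comparison. Over all genes tested in that comparison, 14.4% were higher and 10.9% lower.

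Effector and residency genes were lower in dividing cells. Of 23 cytotoxic effector genes measured, 15 were lower and none higher, with a median of -0.89. Ccl4, a chemokine, had 84.2 and 70.1 CPM in proliferating cells of the cystine samples and 64.5 and 78.4 CPM in those of the control samples, against 249, 312, 247 and 381 CPM in other T cells. Klrd1, the CD94 receptor subunit, had 317 and 73.4 CPM in proliferating cells of the cystine samples and 273 and 364 CPM in those of the control samples, against 694, 633, 810 and 1169 CPM. No sample of proliferating cells reached the lowest other T cell value of either gene. Nkg7, a granule protein, was lower by 0.97 and the chemokine Ccl5 by 1.05 on the log2 scale.

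The adaptors Tyrobp and Fcer1g, which serve innate-like receptors of intraepithelial lymphocytes, were lower by 1.67 and 1.11. In all, 20 of 24 measured genes of the γδ and natural CD8αα list were lower, with a median of -0.79. Cd8a had 1069 and 854 CPM in proliferating cells of the cystine samples and 1220 and 1276 CPM in those of the control samples, against 2044, 2142, 1922 and 2545 CPM in other T cells. It was detected in 78.6% and 83.3% of proliferating cells in the cystine samples and 85.9% and 83.6% in the control samples. Other T cells weighted to the same UMI counts had it in 87.6%, 84.0%, 89.1% and 88.7%, in the same order. Of inhibitory receptors 6 of 10 were lower, among them Lag3 by 1.34 and Tigit by 1.53, and of homing and residency genes 12 of 20, among them Itga1, an integrin subunit, by 1.03 and Cxcr6 by 1.35. Bcl2, a survival factor, had 149 and 117 CPM in proliferating cells of the cystine samples and 199 and 160 CPM in those of the control samples, against 575, 524, 515 and 386 CPM. Il7r, the interleukin 7 receptor, had 9.90 and 3.34 CPM in the cystine samples and 20.5 and 14.3 CPM in the control samples, against 47.9 to 60.4 CPM. None of the 26 activation and growth genes was higher, and 8 were lower. Outside the lists, Neat1, a nuclear long noncoding RNA, had 14.9 and 10.0 CPM in proliferating cells of the cystine samples and 29.3 and 39.2 CPM in those of the control samples, against 97.7 to 115 CPM in other T cells. Kdm5b, a histone demethylase, was lower by 2.18 and Ltb, lymphotoxin β, by 1.76. Apoa1, an enterocyte transcript, was lower by 2.80, and by 0.63 without the epithelial barcodes. Of 22 interferon response genes, 6 were lower, and Ifi27l2a was higher by 1.55.

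Matching on depth and leaving out the epithelial barcodes left most cytotoxic effector genes lower and fewer residency genes. Matching on depth alone left 4381 genes, of which 20.2% were called, 11.3% higher and 8.97% lower. With both changes 3446 genes were tested and 25.3% were called, 14.4% higher and 10.9% lower, with a median of -0.016. Tyrobp was lower by 1.57, Klrd1 by 1.50, Ccl4 by 1.96, Bcl2 by 1.30, Btg1 by 1.64 and Cd8a by 0.68. Of 15 cytotoxic effector genes measured there, 11 were lower, with a median of -0.71, and of 19 γδ and natural CD8αα genes 10, with a median of -0.46. Of 12 homing and residency genes 4 were lower, with a median of -0.44, against -0.71 in all barcodes, and Itga1, at -0.31, no longer passed. The receptor constant genes moved less: Trdc, lower by 0.44 in all barcodes, was lower by 0.11 and no longer passed, and Trac by 0.18 instead of 0.32. Tcrg-C4 was lower by 0.73 and by 0.92 in all barcodes. All of these are levels relative to all UMIs of the same cells, so a lower level is lower against the other transcripts there. Fewer cells that express a gene and less of its RNA per cell cannot be told apart in these sums.

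**Figure D5:**
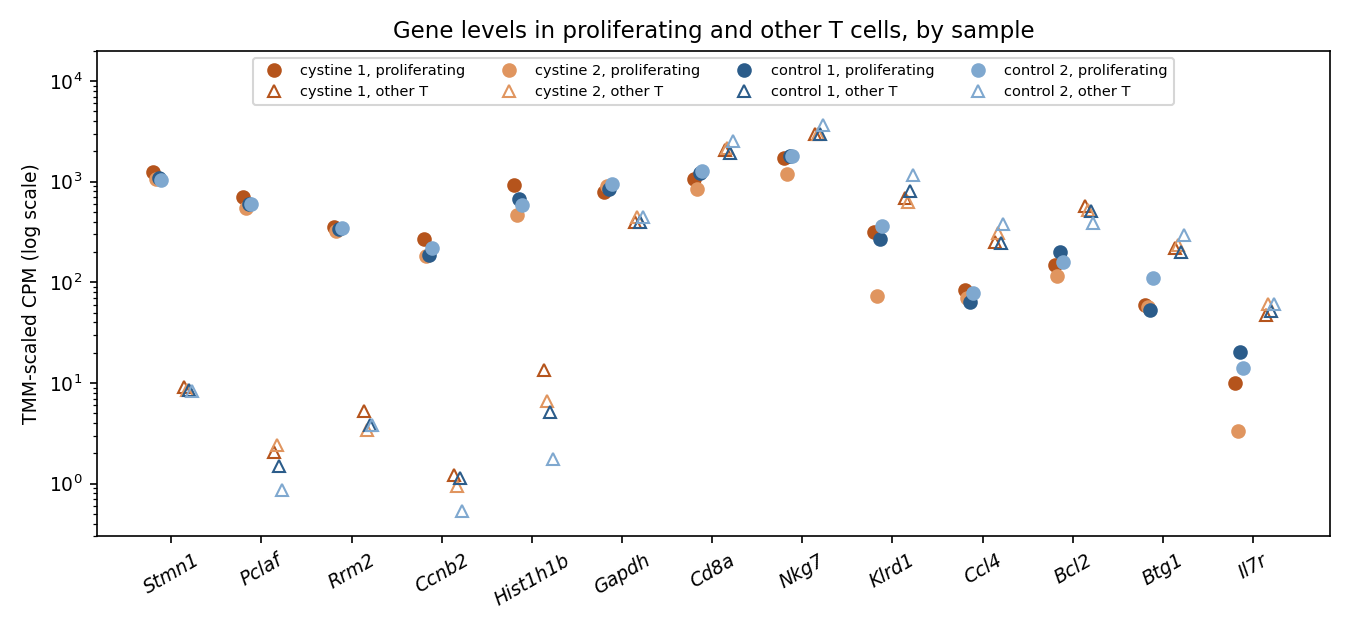
TMM-scaled CPM (log scale) of 13 genes is plotted for each sample, with filled circles for proliferating T cells and open triangles for other T cells. The 5 cycle genes on the left are higher in proliferating cells of every sample, as is Gapdh, and the 7 genes on the right are lower in every sample.

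Rag1, Rag2 and Ptcra, which build the receptor in the thymus, had no UMI in the 264 cells, and neither had Ncr1, a natural killer receptor. A count of 0 allows up to 1.14% of cells with a UMI of each gene, by 3 counts of the total. It does not limit the share of cells that express a gene at a level too low to detect. Foxp3, the regulator of regulatory T cells, was found in 2 cells. Shares of other T cells are not given beside these counts, so they do not set the dividing cells apart. Cd24a, higher by 2.85 in all barcodes, was lower by 1.33 without the epithelial barcodes. Krt8, an epithelial gene, was higher by 3.97 in all barcodes, and lower by 1.49 without the 11. It is among the genes by which the 11 were chosen, so a fall was fixed by that choice.

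The diets gave no gene past the threshold in the proliferating cells. Over 4790 genes, edgeR's quasi-likelihood test found 0% higher or lower at an adjusted p of 0.05, with 111 genes at an unadjusted p under 0.05, and DESeq2's Wald test called 1. The count rested on the libraries used: it was 167 without cystine sample 1, 54 without control sample 2 and 19 without control sample 1, where the lone sample of a diet is assumed to vary like the others. On simulated data of these samples, the test recovered 51 of 100 genes changed by 2 on the log2 scale and 3 of 100 changed by 1, with 4 false calls, among 4790 genes. In other T cells, which are far more numerous, 25 of 13157 genes were higher and 4 lower (0.22% in all, 0.19% higher and 0.0304% lower). Cycle genes were level: Rrm2 had 363 and 327 CPM in the cystine samples and 339 and 339 CPM in the control samples, a log2 change of 0.02 ± 0.29 (SE). The mitosis list had a median log2 change of 0.05 over 73 genes and the S phase list -0.03 over 42, against 0.006 over all genes. Of the γδ and natural CD8αα list 17 of 19 genes had a change below 0, with a median of -0.27, and of cytotoxic effectors 12 of 14, with a median of -0.21. None of these genes passed the test. Without the epithelial barcodes, 12 of 18 genes of the γδ and natural CD8αα list were below 0, with a median of -0.18, and 6 of 13 cytotoxic effectors, with a median of 0.0035. Il22, the cytokine named in the title of the series, had 1 UMI in all, in control sample 1, and Slc7a11, the cystine transporter, had none.

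Without the 11 epithelial barcodes, 6 of 3681 genes were called, which is 0.163%, with 4 higher (0.109%) and 2 lower (0.0543%). This choice was made after the data had been seen. Defa24, a Paneth cell defensin, had 28 and 98 UMIs in proliferating cells of the cystine samples and none in those of the control samples, over all 264 barcodes. That is at least 52.2-fold higher, taking 3 UMIs over the control group as the floor. AY761184 and Gm14851, which also passed, had 38 and 27 UMIs over the cystine samples and none in the controls, at least 15.7-fold and 11.2-fold higher. The same genes stood out in other T cells: Defa24 had 285 and 530 CPM there in the cystine samples and 1.36 and 4.77 CPM in the control samples. Whether these transcripts lay inside the cells was not tested.

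Cd5, a receptor that dampens T cell receptor signals, had 16 and 22 UMIs in the cystine samples and 0 and 10 in the control samples, in 6, 9, 0 and 5 cells. Its log2 change without the epithelial barcodes was 2.44 ± 0.57 (SE; edgeR adjusted p = 0.0366), against an adjusted p of 0.999 with them for Cd5 and Xcl1 alike. Xcl1, a chemokine of intraepithelial lymphocytes, had 15 and 20 UMIs in the cystine samples and 106 and 39 in the control samples, and its change was -1.43 ± 0.32 (edgeR adjusted p = 0.0268). Of the 106 UMIs in control sample 1, 52 were in 1 cell. With 48 to 99 cells a sample, a few barcodes hold much of these sums.

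The diet effect itself differed between proliferating and other T cells, by an interaction term in edgeR, for 0.191% of 12542 genes, 0.112% in the positive and 0.0797% in the negative direction. Lyz2 and the mast cell proteases Mcpt1 and Mcpt2 were among them, each held almost wholly by 1 barcode.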

How the data were processed

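Gene expression was measured by droplet single-cell RNA sequencing in 4 samples. Per the labels, sorted CD45+ intra-crypt cells were used. The deposited values are whole-number UMI counts of 32285 genes per barcode, which the authors had already filtered to called cells. Seurat 4.0.1, Cell Ranger 3.1.0 and the build GRCm39 are named in the submitters' processing notes, while the matrix header names Cell Ranger 7.0.1. Libraries held 27229695 to 31301936 UMIs. The filter required 300 genes and allowed 10% of UMIs from mitochondrial genes. No barcode was removed as a doublet in the values reported. Scrublet scores (0.8% expected per 1000 barcodes) served an alternative.

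Counts were summed per sample over proliferating and other T cells and tested with edgeR 4.0.16 (quasi-likelihood, TMM, Benjamini-Hochberg over all genes, threshold 0.05), with the sample as a block between cell classes and without a block between diets. DESeq2 1.42.0 was an alternative. Shares were compared by exact permutation tests, two-sided. The difference of the diet effect was an interaction term. The edgeR tests were tested on simulated data with 200 changed genes.

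The members and gene lists were chosen with earlier results of these data known. Named genes were the receptor and coreceptor genes, the largest folds above 50 CPM (20 CPM for diet) in each direction, and up to 4 per list with the lowest adjusted p. Genes or barcodes named outside that rule, such as Il22, Slc7a11, Foxp3, Cdkn2a, Cdkn2c and Rbl1, were chosen after their values were seen. Some genes that meet the rule are not reported here.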

Additional observations from a re-analysis of the deposited data

Results flagged for a closer look

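The diet effect differed between proliferating and other T cells, by an interaction term in edgeR, for 14 of 12542 genes in one direction (0.112%) and 10 in the other (0.0797%). The 10 named below are among the 6 in each direction with the lowest adjusted p. In 5 of them a single barcode held over 50% of the proliferating cells' UMIs. Differences are on the log2 scale, cystine minus control in proliferating cells less the same in other T cells, and those against samples at 0 UMIs depend on the prior count.

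Mcpt1 (difference 8.96) and Mcpt2 (15.5), mast cell proteases, had 621 and 363 UMIs in 1 barcode of cystine sample 2 and at most 1 UMI in any other sample's proliferating cells. B230359F08Rik (12.8) had 20 and 1 UMIs in the cystine samples and none in the control samples, with 16 in 1 barcode. Lyz2 (-12.5), lysozyme of myeloid cells, had none in the cystine samples and 54 and 0 in the control samples, with 53 in 1 barcode.

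Mt1 (2.63), a metallothionein, had 17 and 116 UMIs in the cystine samples and 13 and 21 in the control samples. Without the epithelial barcodes, cystine sample 2 had 6 of the 116. Transcripts of 2210407C18Rik (3.61) numbered 0 and 62 in the cystine samples and 9 and 3 in the control samples, and none were outside the epithelial barcodes. Reg3b (-2.63), an antimicrobial lectin of the epithelium, had 2 and 32 in the cystine samples and 75 and 363 in the control samples, with 355 in 1 barcode. Outside the epithelial barcodes it had 2 and 6 in the cystine samples and 3 and 0 in the control samples.

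Trbv16 (-2.89), a β chain V gene, had 3 and 3 UMIs in the cystine samples and 17 and 26 in the control samples. Outside the epithelial barcodes these were 3 and 0 in the cystine samples and 17 and 9 in the control samples, with a difference of -2.92. Xcl1 (-1.81), whose UMIs are given above, had a difference of -1.62 without the epithelial barcodes. AY036118 (-1.59) had 24 and 59 UMIs in the cystine samples and 66 and 205 in the control samples. Outside the epithelial barcodes these were 24 and 42 in the cystine samples and 66 and 98 in the control samples, with a difference of -1.02. The part of single barcodes in these differences was not tested beyond leaving out the epithelial ones.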

How the results depend on the processing

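The lower share of proliferating T cells on the cystine diet kept its direction in all 10 alternatives, between -0.0452 and -0.263 percentage points. Shares of receptor and coreceptor classes were less stable. The cause of each change below was not tested. Alternatives without the epithelial barcodes, without barcodes over 10000 UMIs and with weighting to UMI counts were chosen after seeing the data.

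For the diet difference of class shares among proliferating cells (percentage points), Trdc alone (-1.42) was 2.82 with the stricter gate and -7.52 to 4.69 with a sample left out. Trac alone (11.2) was -9.58 after thinning. Neither gene (0.257) was -2.93 with the stricter cell filter and -1.38 to 1.89 with a sample left out, and Cd4 alone (-1.03) -2.98 to 0.924. Thinning left no Cd4 value. For the share of a class that proliferates, Trac alone (0.0142) was -0.187 after thinning, -0.0103 with the stricter gate, -0.00287 without epithelial barcodes and -0.184 to 0.212 with a sample left out. No coreceptor (0.00373) was -0.0592 after thinning, -0.0343 with the stricter cell filter, -0.00139 without epithelial barcodes and -0.0952 to 0.103 with a sample left out. Cd8a with Cd8b1 (-0.233) was 0.112 with the stricter gate. With a sample left out, Trdc with Trac was -0.611 to 0.0863 and Cd4 alone -5.41 to 0.350.

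For proliferating minus other T cells, Trdc alone (-1.95) was 2.03 weighted and 2.13 weighted without epithelial barcodes. Trac alone (2.82) was -9.93, neither gene (-21.5) 5.62 and Cd4 alone (2.02) -0.329 after thinning. Cd8a with Cd8b1 (0.142) was -1.49 weighted, -1.72 weighted without epithelial barcodes, -1.94 thinned, -0.619 with the stricter gate and -1.52 to 2.18 with a sample left out. No coreceptor (-0.968) was 2.497 weighted, 4.68 weighted without epithelial barcodes, 13.4 thinned, 2.15 with the stricter cell filter and -2.63 to 0.724 with a sample left out.

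The count of diet genes (0) was 56 without the low count filter, 5 without barcodes over 10000 UMIs, 6 without epithelial barcodes, 1 by DESeq2's Wald test and 0 to 167 with a sample left out. The labels do not pair the samples by replicate number. The replicate block gave 0 calls, and 4 without epithelial barcodes; deviations of same-numbered samples correlated at 0.394 over 4790 genes, and at 0.0797 over 3681 genes without epithelial barcodes. The 2464 calls against other T cells, of 11664 genes (21.1%), were 886 of 4381 (20.2%) when matched on UMIs, with 752 shared. They were 871 of 3446 (25.3%) when also without epithelial barcodes, with 731 shared. Fewer genes were tested in the matched fits. The 24 calls for the difference of the diet effect were 9 with the stricter gate, 13 matched on UMIs and 13 to 330 with a sample left out, the highest without cystine sample 1.

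Among named genes against other T cells (log2), Trbc1 (-0.19) was 0.060 matched, 0.034 without epithelial barcodes and 0.092 with both. Without barcodes over 10000 UMIs, Cd24a was -1.30, Krt19 -1.01 and Krt8 -0.32. Without epithelial barcodes, Cd24a was -1.33, Krt19 -0.57 and Krt8 -1.49, where Krt19 and Krt8 are among the genes that chose those barcodes. Matched on UMIs, Prdx1 was -0.14, Krt19 -0.20, Cldn7 -0.42, Krt8 -0.70 and Defa24 1.22, or 1.37 for Defa24 also without epithelial barcodes. Of the differences of the diet effect, 2210407C18Rik was -0.12 without barcodes over 10000 UMIs, -0.83 without epithelial barcodes and -7.95 to 5.05 with a sample left out, and Reg3b 2.20 and 1.39. With 48 to 99 cells a sample, changes of 1 on the log2 scale between diets were rarely detectable, with 3 of 100 simulated ones recovered.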
